A study of Mus musculus with 8 samples.

Results

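The replication-dependent histone genes encode the H1 linker histones and the core histones H2A, H2B, H3 and H4. They were taken by name: every gene whose symbol begins with Hist1h, Hist2h, Hist3h or Hist4h and that had at least 20 UMIs (unique molecular identifiers, each standing for 1 captured RNA molecule) over the deposited matrices of both ages. Of 31053 genes, 67 matched by name and 59 reached the minimum: 6 H1, 15 H2A, 16 H2B, 11 H3 and 11 H4 genes. The lowest member had 21 UMIs and the highest gene left out had 13. The 8 genes left out held 54 UMIs in all, against 379438 in the members, and 2 of them had none. On GRCm38, 47 of the members lie in the large cluster on chromosome 13 (positions 21715763 to 23764406), 9 on chromosome 3, 2 on chromosome 11 and 1, Hist4h4, on chromosome 6.

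The cells came from whole intervertebral discs of Tagln-CreERt2;R26tdTomato mice at 8 weeks (8W) and at postnatal day 10 (P10), from the lumbar and the proximal tail spine. All mice carried a tamoxifen-inducible Cre under control of Tagln, a smooth muscle gene, and a tdTomato reporter, and all had received tamoxifen at postnatal day 5; no other treatment and no Cre-negative control was listed. Discs were freed of muscle and vessels, digested with dispase and type II collagenase, and the strained cells were profiled with 10x Chromium; blood cells had been washed off, and no sort on the reporter was listed. The 4 sequencing records of each age were pooled in 1 matrix without a map from cells to records. Each age is therefore 1 sample: no test across mice was possible, and all intervals below are exact 95% intervals that cover counting error only.

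Most histone RNA is made while DNA is copied, when new DNA has to be packed into nucleosomes. Replication-dependent histone transcripts are unusual in that they have no introns and no poly(A) tail. Their 3' end is a short stem-loop, which is bound by SLBP and cut by a complex that contains the U7 small nuclear RNA. Some of these genes also give longer, polyadenylated transcripts, which have been described mainly in differentiated cells. The 10x assay primes reverse transcription from poly(A), so a histone transcript that ends at the stem-loop is read poorly. Replacement histones such as H3.3 and H2A.Z come from ordinary polyadenylated transcripts outside the clusters and are made throughout the cell cycle.

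The 3' end of each gene in the annotation (GENCODE vM21, GRCm38) separates the members. A perfect stem-loop of 16 bases was found in 41 of the 59 genes, in 6 different forms, when 1 transcript per gene was read, the one with the longest annotated 3' end. A shorter transcript of Hist1h2bp, which is not among the 41, holds a loop too. The models of 9 genes, Hist1h1b among them, end at the stop codon, so no loop past it could be found. Absence from the 41 therefore does not show that a gene lacks a loop. The 6 genes shown carry the loop and recur in the results, with the stem-loop in capitals:
Hist1h2ap (H2A): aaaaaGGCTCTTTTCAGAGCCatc
Hist1h2ae (H2A): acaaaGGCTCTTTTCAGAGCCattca
Hist1h2ac (H2A): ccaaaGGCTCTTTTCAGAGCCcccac
Hist1h1c (H1): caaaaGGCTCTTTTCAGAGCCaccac
Hist1h4i (H4): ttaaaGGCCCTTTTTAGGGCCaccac
Hist2h4 (H4): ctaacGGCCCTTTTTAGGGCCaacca
The form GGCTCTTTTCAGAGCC was shared by 24 genes. All 10 H4 genes with a loop had a stem that began GGCCC or GGTCC, and none of the 31 genes of the other families did. After the loop, the annotated transcript of Hist1h2ap went on for 3 bases, that of Hist1h2ae for 151, that of Hist1h4i for 330, that of Hist1h1c for 840, that of Hist2h4 for 1257 and that of Hist1h2ac for 2010. By the annotated length past the stop codon, 29 genes had more than 100 bases, 21 had up to 100 and 9 had none. The 29 genes with long 3' ends held 93.1% of the histone UMIs, the 21 with short ends 5.98% and the 9 with no annotated 3' end 0.958%. A poly(A) signal (AATAAA or ATTAAA) lay in the last 50 bases of 15 of the 29 long models, of 1 of the 21 short ones and of none of the other 9. An annotated end also sets which reads can be assigned to a gene, so the length of the transcript and the length of its gene model cannot be told apart here.

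After filtering, 6342 cells were kept at 8W and 6999 at P10, with a median of 14683.5 UMIs per cell at 8W and 18300 at P10. The libraries had 12 cell barcodes in common, 10 of them among the kept cells. Cells were called cycling when genes of an S-phase list and a G2/M list, neither of which holds a histone gene, made up at least 20 of 10000 UMIs with at least 10 such UMIs, and non-cycling when they made up fewer than 10. This gave 257 cycling cells (4.05%) and 5853 non-cycling cells at 8W, and 524 cycling cells (7.49%) and 6259 non-cycling cells at P10. Cycling cells were deeper than non-cycling ones, with median UMIs of 26669 against 14528 at 8W and of 28494 against 17968 at P10. Their median doublet scores were 0.0683 against 0.03 at 8W and 0.0656 against 0.0419 at P10; the part of depth and doublets in the ratios below was not tested beyond thinning and a stricter score limit. Levels are given as CPM: summed UMIs of a gene over all gene UMIs of the same cells, times 1000000. A gene was counted as higher or lower when the CPM differed at least 2-fold and both sums together held at least 20 UMIs; a gene that reaches this minimum through its high group alone can pass in 1 direction only.

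Histone RNA was higher in cycling cells at both ages, and the ratios of single genes ran from below 0 to above 5 on the log2 scale at each age. The 59 genes together stood at 1565 CPM in cycling cells against 835 CPM in non-cycling cells at 8W, a log2 ratio of 0.91 (0.88 to 0.93). At P10 they stood at 2931 CPM in cycling cells against 1821 CPM in non-cycling cells, a log2 ratio of 0.69 (0.67 to 0.70). At 8W, 29 of the 43 members with enough UMIs were at least 2-fold higher in cycling cells and 0 were lower, where 11.6% of all 16218 genes compared were higher and 6.95% lower. At P10, 38 of 58 were higher and 0 lower, where 13.2% of all 15801 genes were higher and 5.94% lower. The median member had a log2 ratio of 2.51 at 8W and 2.08 at P10, against 0.11 and 0.21 for the median of all genes compared at those ages. As there is 1 library per age, these counts describe fold sizes in these cells and are not tests.

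Hist1h2ap, an H2A gene, took 22.4% of the histone UMIs of cycling P10 cells. It stood at 207 CPM (196 to 218) in cycling cells against 4.02 CPM (3.64 to 4.44) in non-cycling cells at 8W, a log2 ratio of 5.68. At P10 it stood at 657 CPM (644 to 670) in cycling cells against 35.03 CPM (34.0 to 36.1) in non-cycling cells, a log2 ratio of 4.23. With every cell thinned to 2000 UMIs, at least 1 Hist1h2ap UMI was found in 26.1% of cycling cells (20.8 to 32.0%) against 0.544% of non-cycling cells (0.370 to 0.771%) at 8W. The same thinned shares at P10 were 51.2% (46.9 to 55.6%) and 5.54% (4.99 to 6.14%); unthinned, they were 43.2% against 4.20% at 8W and 78.8% against 28.2% at P10. Of 85 thinned neutrophil-like cells at P10, among which 0 were called cycling, 1 had a Hist1h2ap UMI (1.18%, 0.0298 to 6.38%). Unthinned, at a median of 3368 UMIs per neutrophil-like cell, the share there was 11.01% (12 of 109 cells). The part of free RNA in the 5.54% of non-cycling P10 cells was not tested. The last 300 bases of Hist1h2ap share every stretch of 60 bases with other genes, so its count cannot be assigned to this gene alone.

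**Figure D1:**
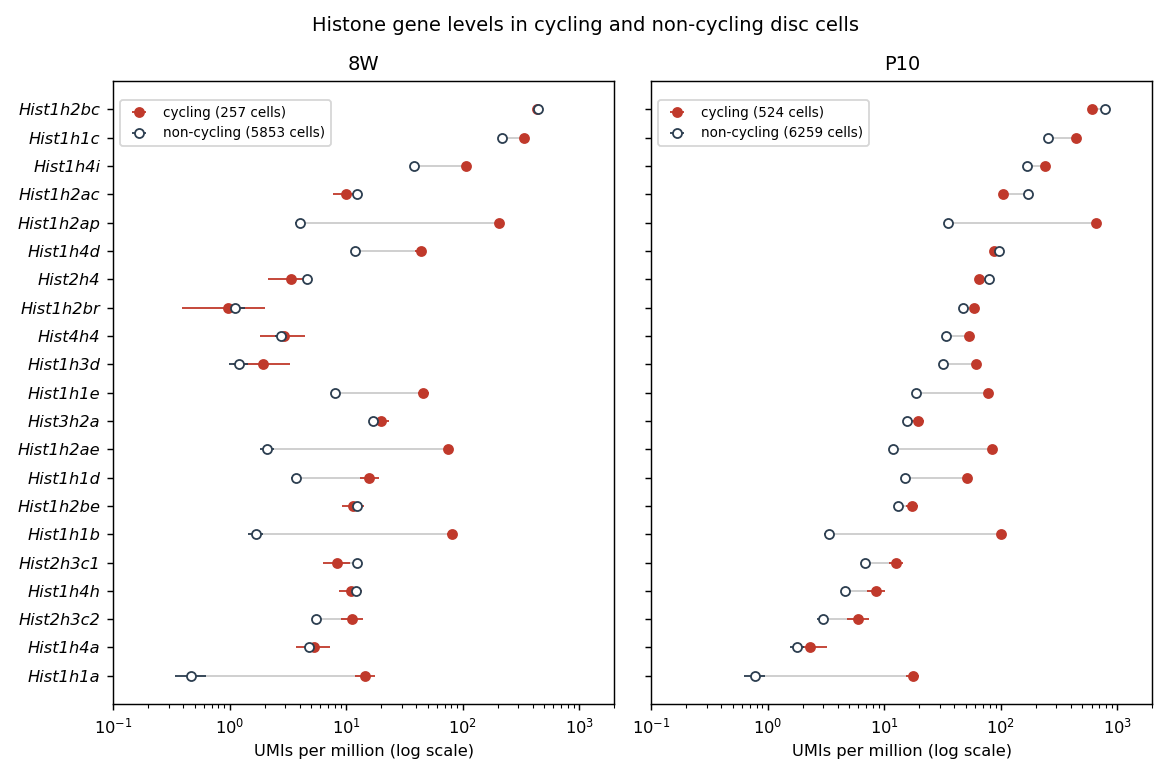
Level of the 20 histone genes with the most UMIs, and of Hist1h1a, in cycling (filled red) and non-cycling (open) cells at 8W (left) and P10 (right), in CPM on a log axis with exact 95% Poisson intervals. Hist1h2ap, Hist1h2ae, Hist1h1b and Hist1h1a show wide gaps at both ages, whereas the 2 symbols of Hist1h2bc nearly coincide at 8W and lie in the opposite order at P10.

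The linker histone genes, which bind the DNA between nucleosomes, covered much of this range. Hist1h1b stood at 80.5 CPM in cycling cells against 1.67 CPM in non-cycling cells at 8W, a log2 ratio of 5.59 (5.34 to 5.85), and at 100.4 CPM against 3.35 CPM at P10, a log2 ratio of 4.91 (4.75 to 5.07). Hist1h1a, a low gene, had 14.5 CPM in cycling cells against 0.466 CPM in non-cycling cells at 8W and 17.5 CPM against 0.771 CPM at P10. Hist1h1e and Hist1h1d were between 3.39-fold and 5.69-fold higher in cycling cells over the 2 ages; all 60-base stretches in the last 300 bases of Hist1h1e occur in other genes too. Hist1h1c, by contrast, had 336 CPM in cycling cells against 219 CPM in non-cycling cells at 8W and 441 CPM against 253 CPM at P10, ratios of 1.53 and 1.74 that stay under 2-fold. The testis H1 gene Hist1h1t was the sixth and stayed at 3.66 CPM or less in all 4 groups.

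The stretches before these H1 genes show where they are alike in sequence and where they are not (RefSeq promoters, GRCm38.p6, 120 bases before the start, written in the direction of the gene, with matches on either strand to the motifs spelled out after them in capitals):
Hist1h1a (chr13:23763548-23763667, plus strand): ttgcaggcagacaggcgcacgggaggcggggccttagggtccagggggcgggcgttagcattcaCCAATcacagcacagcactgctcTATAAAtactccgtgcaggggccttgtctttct
Hist1h1b (chr13:21780626-21780745, minus strand): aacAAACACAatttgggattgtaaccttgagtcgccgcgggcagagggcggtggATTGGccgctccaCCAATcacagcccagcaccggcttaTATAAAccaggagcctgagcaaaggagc
Hist1h1c (chr13:23738687-23738806, plus strand): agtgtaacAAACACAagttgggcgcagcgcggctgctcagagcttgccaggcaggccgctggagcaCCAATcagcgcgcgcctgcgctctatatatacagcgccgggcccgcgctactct
CCAAT stood in all 3 stretches, TATAAA in those of Hist1h1a and Hist1h1b, and AAACACA in those of Hist1h1b and Hist1h1c. AAACACA also stood before Hist1h1e and Hist1h1t, and so in 4 of the 6 H1 promoters, against 2.68% of all promoters of the RefSeq table. Whether these motifs bear on the cycling ratios was not tested.

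The motifs were searched on both strands as TATAAA (a form of the TATA box), CCAAT (bound by NF-Y), ATTTGCAT (the octamer, bound by Oct-1) and AAACACA (a box described before H1 genes). Of the members, 54 matched the RefSeq promoter table by Ensembl identifier, symbol or synonym. In the 120 bases before the start, CCAAT was found in 42 of them (77.8%), against 21.3% of all 32851 promoters of the table. TATAAA was found in 27.8% of the members against 6.34% of all promoters, the octamer in 11.1% against 0.791%, and AAACACA in 11.1% against 2.68%. By family, CCAAT stood in 6 of 6 H1, 15 of 15 H2A, 13 of 14 H2B, 6 of 9 H3 and 2 of 10 H4 promoters, and 5 of the 6 octamers were in H2B promoters.

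Among the core histones, the H2A genes had the largest summed ratio and the H2B genes the smallest. H2A genes summed to 348 CPM in cycling cells against 39.2 CPM in non-cycling cells at 8W (log2 3.15) and to 912 against 241 CPM at P10 (log2 1.92). Next to Hist1h2ap, Hist1h2ae stood at 75.6 CPM in cycling cells against 2.10 CPM in non-cycling cells at 8W, a log2 ratio of 5.17, and at 83.1 against 11.9 CPM at P10, a log2 ratio of 2.81. H3 genes summed to 58.2 against 21.01 CPM at 8W (log2 1.47) and to 124 against 45.4 CPM at P10 (log2 1.46), with Hist1h3c at 9.47 against 0.081 CPM at 8W. Hist1h3b had 22 UMIs in cycling cells against 0 in non-cycling cells at 8W, at least 101-fold higher when the non-cycling group is set to 3 counts. H4 genes summed to 177 against 75.7 CPM at 8W (log2 1.23) but to 466 against 389 CPM at P10 (log2 0.26). Hist1h4i, the H4 gene with the most UMIs, stood at 106 against 38.4 CPM at 8W and at 241 against 169 CPM at P10, log2 ratios of 1.46 and 0.51. H2B genes summed to 488 against 466 CPM at 8W (log2 0.07) and to 738 against 853 CPM at P10, a log2 ratio of -0.21 (-0.24 to -0.18).

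The H2B sum followed a single gene. Hist1h2bc alone had 437 CPM (421 to 452) in cycling cells against 446 CPM (442 to 451) in non-cycling cells at 8W, intervals that overlap, and 607 CPM (595 to 620) against 782 CPM (777 to 787) at P10. Thinned to 2000 UMIs, 43.9% of cycling cells against 45.4% of non-cycling cells had a Hist1h2bc UMI at 8W, and 47.0% against 49.7% at P10. With Hist1h2bc counted, 8 of the 11 H2B genes compared at 8W and 12 of the 16 at P10 were at least 2-fold higher in cycling cells. Of all genes compared, 11.6% were higher at 8W and 13.2% at P10. The H2B family had a median log2 ratio of 3.39 at 8W and 2.13 at P10. In non-cycling cells Hist1h2bc and Hist1h1c together made up 79.7% of all histone UMIs at 8W and 56.8% at P10; these are shares of captured 3' tags and are not scaled by gene length.

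Over both ages, 26 genes were at least 2-fold higher in cycling cells at each. Of all genes compared, 11.6% were higher at 8W and 13.2% at P10. The share of all genes that passed at both ages, or at only 1, was not computed. At 8W but not at P10, 3 more passed (Hist1h4i, Hist1h4d and Hist1h4c, all H4), with P10 log2 ratios of 0.51, -0.14 and 0.81. At P10 but not at 8W, 12 passed, of which 11 had too few UMIs to be compared at 8W; the other was Hist2h2aa1, with a log2 ratio of -0.098 at 8W. The difference between the ages was not tested. The remaining 18 passed at neither. None was 2-fold lower at either age. Of the 18, Hist2h2ab, Hist3h2ba, Hist1h2ao, Hist1h4n and Hist1h2ad had too few UMIs at 8W to be compared, and Hist1h1t had 2 UMIs in cycling and 19 in non-cycling cells. The other 12 were Hist1h2bc, Hist1h1c, Hist1h2ac, Hist2h4, Hist1h2br, Hist4h4, Hist1h3d, Hist3h2a, Hist1h2be, Hist2h3c1, Hist1h4h and Hist1h4a, of which all but Hist1h4h have annotated 3' ends of more than 100 bases. Hist1h2ac was the lowest at P10, with 104 CPM in cycling cells against 172 CPM in non-cycling cells, a log2 ratio of -0.72 (-0.80 to -0.65). These ratios are over all classes. Within NP-like cells the P10 ratios of Hist1h2ac, Hist2h4, Hist1h2bc, Hist3h2a and Hist1h4h each reversed direction, with values given under the dependence on processing.

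Cycling ratios were larger for genes with shorter annotated 3' ends. Genes with no annotated bases past the stop codon summed to 98.4 CPM in cycling cells against 2.42 CPM in non-cycling cells at 8W (log2 5.34) and to 123 against 5.37 CPM at P10 (log2 4.52). Genes with up to 100 bases summed to 284 against 18.6 CPM at 8W (log2 3.93) and to 762.3 against 50.4 CPM at P10 (log2 3.92). Genes with more than 100 bases summed to 1182 against 814 CPM at 8W (log2 0.54) and to 2046 against 1765 CPM at P10 (log2 0.21). Single genes led the 2 shorter groups. Hist1h2ap held 1486 of the 2043 cycling UMIs of genes with up to 100 bases at 8W and 10237 of 11875 at P10. Hist1h1b held 578 of 707 and 1564 of 1918 of those with none. Group medians, in the order none, up to 100 and more than 100 bases, were log2 5.59, 5.04 and 1.17 at 8W. At P10 these medians were 4.30, 2.75 and 0.87. At least 2-fold higher were 5 of 5, 9 of 10 and 15 of 28 compared genes of these groups at 8W. At P10 these counts were 8 of 8, 17 of 21 and 13 of 29. Of all genes compared, 11.6% were higher at 8W and 13.2% at P10. At 8W, 4 of 9, 11 of 21 and 1 of 29 genes of these groups had too few UMIs. Some low genes met the minimum mainly through cycling cells, such as Hist1h2an with 29 UMIs there against 3 at 8W. Counts and medians of the shorter groups were thus partly set by that minimum. Long-ended genes were not uniform: Hist1h2ae, Hist1h3c and Hist2h2be are among them and were at least 2-fold higher in cycling cells at both ages.

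**Figure D2:**
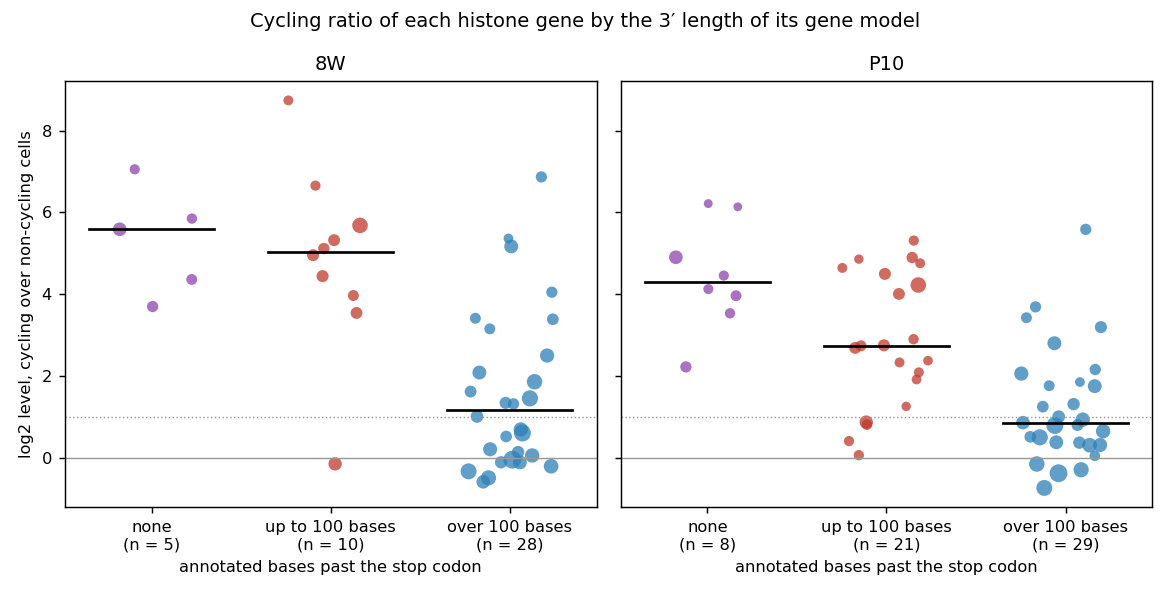
Log2 ratio of each histone gene in cycling over non-cycling cells at 8W (left) and P10 (right), by the annotated bases past its stop codon; each point is 1 gene, larger points have more UMIs, black bars are medians and the dotted line marks 2-fold. The long-ended genes reach down to 0 and below, whereas all genes drawn with no annotated 3' end lie above 2-fold. Some of the latter reached the UMI minimum mainly through cycling cells. A gene at 0 in non-cycling cells is drawn at its lower bound.

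Within cycling cells the histone genes were not highest in the cells with the highest S-list share of cell-cycle UMIs. Cells with more S-list than G2/M-list UMIs (S-leaning, 83 cells at 8W and 185 at P10) were set against the other cycling cells (G2/M-leaning, 174 and 339). The members together stood at 989 CPM in S-leaning cells against 1792 CPM in G2/M-leaning cells at 8W (log2 -0.86, -0.93 to -0.79) and at 2241 against 3276 CPM at P10 (log2 -0.55, -0.58 to -0.52). At 8W, 3 of 36 compared members were at least 2-fold higher in S-leaning cells and 21 lower, where 6.51% of all genes compared were higher and 7.8% lower. At P10, 1 of 49 was higher and 10 lower, where 4.67% of all genes were higher and 4.13% lower. Hist1h1d was lower in S-leaning cells at both ages, with 6.90 against 19.4 CPM at 8W and 22.2 against 65.2 CPM at P10. Hist1h2ap stood at 102 against 248 CPM at 8W (log2 -1.28) but at 581 against 695 CPM at P10 (log2 -0.26). The 3 higher members at 8W were Hist2h4, Hist1h3a and Hist1h4a, with 24 to 40 UMIs each over both groups, and the 1 at P10 was Hist1h2bk with 14 UMIs in S-leaning against 9 in G2/M-leaning cells. S-leaning cells had median UMIs of 22010 against 28351.5 at 8W and of 27750 against 28775 at P10. In cycling cells the G2/M list summed to 6441 CPM and the S list to 1995 CPM at 8W. At P10 these sums were 4391 and 1841 CPM, so the cut between the groups does not mark a phase. Class makeup differed too: at 8W, 49 of 83 S-leaning and 48 of 174 G2/M-leaning cells were chondrocyte-like. All 19 cycling hypertrophic chondrocyte-like cells at P10 were S-leaning. The part of class makeup in these ratios was not tested.

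A finer division showed where the peak lay. Cycling cells were binned by the share of S-list UMIs in the sum of both lists. The 30 genes with short or no annotated 3' ends stood at 215, 959, 968, 136 and 47.0 CPM at 8W in bins from 0–20% to 80–100%, and at 653, 1338, 1588, 710 and 180 CPM at P10. They were thus highest where both lists contributed, between 20% and 60%, and lowest at 80–100% at both ages. Hist1h2ap had 109, 553, 529, 66.7 and 9.11 CPM in the same bins at 8W and 474, 991, 1202, 540 and 128 CPM at P10. The 29 long-ended genes moved differently at P10, with 2662 CPM in the 0–20% bin, 1354 CPM in the 40–60% bin and 1761 CPM in the 80–100% bin. The bins held 26 to 124 cells at 8W and 63 to 210 at P10.

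**Figure D3:**
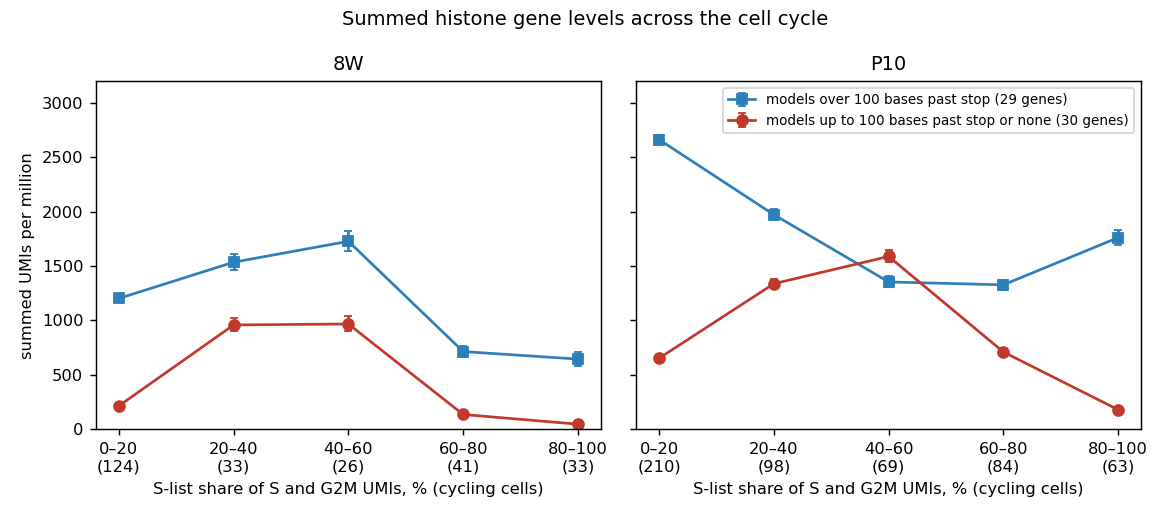
Summed level of histone genes with long annotated 3' ends (blue squares, 29 genes) and with short or no annotated 3' ends (red circles, 30 genes) in cycling cells, by the S-list share of their cell-cycle UMIs, at 8W (left) and P10 (right); cells per bin in parentheses, bars are exact 95% Poisson intervals. The red line peaks in the middle bins at both ages, at 968 and 1588 CPM in the 40–60% bin.

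The peak in the middle bins was also seen inside both main cell classes. In chondrocyte-like cells the short-ended genes stood at 622, 1397 and 135 CPM at 8W in bins of 0–20%, 20–60% and 60–100%, and at 788, 1725 and 803 CPM at P10. In NP-like cells (nucleus pulposus, the core of the disc) they stood at 79.4, 616 and 73.0 CPM at 8W, and at 149, 596 and 47.8 CPM at P10. These NP-like bins were small, with 10 to 29 cells at P10, and most NP-like cycling cells at 8W lay in a cluster whose class depended on the clustering, as given with the within-class ratios.

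Cell classes were named from marker lists after clustering both libraries together with the histone genes left out of the genes used to cluster. In the 8 chondrocyte-like clusters, 11 to 14 of 15 chondrocyte markers were detected in at least 50% of the cells. This was not particular to them: hypertrophic chondrocyte-like clusters had 11 to 14, NP-like cluster 15 had 11 and the tendon fibroblast-like cluster 10. The chondrocyte-like name was given only where no other marker list qualified. Non-cycling cells of different classes differed widely in histone RNA at both ages; which cells were named hypertrophic chondrocyte-like depended on the clustering, with values given under the comparison of ages. At 8W the sum was 1367 CPM in chondrocyte-like cells, 683 CPM in NP-like cells and 533 CPM in hypertrophic chondrocyte-like cells, and lowest in osteoblast-like cells at 218 CPM (195 to 243). Between these stood an unnamed cluster of 971 cells at 406 CPM, macrophage-like cells at 405, neutrophil-like cells at 342, connective fibroblast-like cells at 322, mural-like cells at 320 and endothelial-like cells at 291. From the unnamed cluster down to endothelial-like cells, the intervals of all neighbours in this order overlapped; the neutrophil-like value rests on 24 UMIs.

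At P10 the highest sums were 2745 CPM in hypertrophic chondrocyte-like, 1994 CPM in chondrocyte-like and 1529 CPM in neutrophil-like cells. Mural-like cells stood at 960 CPM, Schwann-like at 896, macrophage-like at 705 and endothelial-like at 529. The lowest were tendon fibroblast-like cells at 420 CPM, NP-like cells at 410, connective fibroblast-like cells at 384, osteoblast-like cells at 274 and skeletal muscle-like cells at 187. Neighbours in this order whose intervals overlapped were mural-like with Schwann-like, tendon fibroblast-like with NP-like, NP-like with connective fibroblast-like, and osteoblast-like with skeletal muscle-like. Median depth was unequal, with 3368 UMIs in neutrophil-like cells, 18489 in chondrocyte-like cells and 29142.5 in hypertrophic chondrocyte-like cells at P10.

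**Figure D4:**
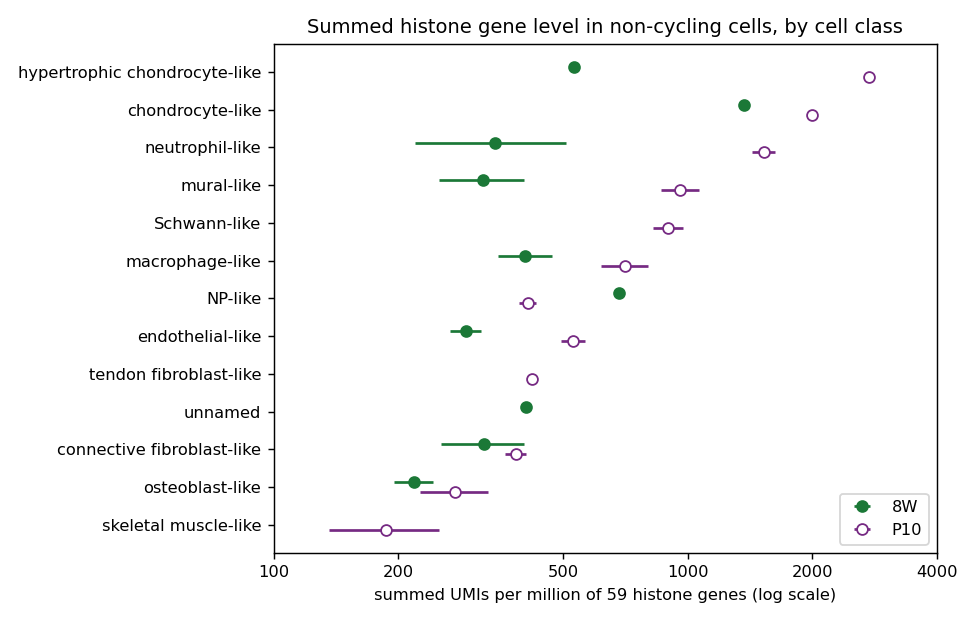
Summed level of the 59 histone genes in non-cycling cells of each class at 8W (filled green) and P10 (open purple), in CPM on a log axis, with exact 95% Poisson intervals; classes with a single symbol had fewer than 20 non-cycling cells at the other age. NP-like cells are the only class drawn with a higher 8W than P10 value; the hypertrophic chondrocyte-like gap turned round under the 2 other clusterings.

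Single genes did not share 1 order of classes. At P10 Hist1h1c was highest in hypertrophic chondrocyte-like cells at 504 CPM and mural-like cells at 340, with 246 CPM in chondrocyte-like and 37.4 CPM in neutrophil-like cells, while Hist1h2bc had 689 CPM in neutrophil-like and 194 CPM in mural-like cells. Hist2h4 ran from 133 CPM in hypertrophic chondrocyte-like and 83.9 CPM in chondrocyte-like cells down to 4.74 CPM in NP-like cells and 0 UMIs in the 28 skeletal muscle-like cells. At 8W Hist1h1c was highest in chondrocyte-like cells at 322 CPM, followed by NP-like cells at 208 CPM and, at the low end, osteoblast-like cells at 34.1 CPM. Hist1h2ap in non-cycling cells was highest in chondrocyte-like cells at 8W, at 10.2 CPM, and in hypertrophic chondrocyte-like cells at P10, at 65.1 CPM.

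Summed by class, chondrocyte-like cells had higher histone levels than NP-like cells at each age, under all 3 clusterings tried. Single clusters of the joint clustering did not all follow this order at 8W. Chondrocyte-like cluster 3, with 784 non-cycling cells, stood at 640 CPM, whereas chondrocyte-like clusters 0 and 5 stood at 1746 and 1888 CPM. NP-like clusters 4 and 8 were above cluster 3, at 945 and 705 CPM, and NP-like cluster 6 was below it, at 588 CPM. In non-cycling cells the log2 ratio of chondrocyte-like over NP-like was 1.00 (0.98 to 1.02) at 8W and 2.28 (2.21 to 2.35) at P10; it was 1.34 and 2.44 at a clustering resolution of 2, and 1.47 and 2.34 with the libraries clustered separately. At 8W, 20 of 31 compared members were at least 2-fold higher in chondrocyte-like cells and 4 lower, where 20.9% of all genes compared were higher and 18.7% lower. At P10 these were 23 and 3 of 45 members, where 15.5% of all genes were higher and 23.9% lower. Hist1h2bc stood at 754 CPM in chondrocyte-like against 357 CPM in NP-like cells at 8W and at 901 against 175 CPM at P10. The P10 gap was wider for Hist1h2ac, with 200 CPM in chondrocyte-like against 8.13 CPM in NP-like cells (log2 4.62), while at 8W it was 21.4 against 9.35 CPM. Hist3h2a went the other way, with 17.6 CPM in chondrocyte-like against 20.8 CPM in NP-like cells at 8W and 15.5 against 39.3 CPM at P10. Hist3h2a lies inside the Trim17 gene on the same strand over 2146 bases, so reads of the 2 genes cannot be told apart there.

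Within the 2 main classes cycling cells stood higher at P10 under all 3 clusterings, but at 8W the values depended on the clustering. In chondrocyte-like cells the members stood at 2513 CPM in cycling against 1367 CPM in non-cycling cells at 8W (log2 0.88) and at 3629 against 1994 CPM at P10 (log2 0.86). There 23 of 36 compared members were at least 2-fold higher and 1 lower at 8W (10.8% and 11.7% of all genes compared), and 40 of 55 higher and 0 lower at P10 (13.8% and 8.22%). In NP-like cells they stood at 1010 against 683 CPM at 8W (log2 0.56) and at 1033 against 410 CPM at P10 (log2 1.33). Of the members compared in NP-like cells, 17 of 28 were higher and 1 lower at 8W (10.4% and 5.27% of all genes), and 14 of 19 higher and 1 lower at P10 (9.13% and 6.0%). Within NP-like cells Hist1h2ap had 107 CPM in cycling against 0.759 CPM in non-cycling cells at 8W and 181 against 3.16 CPM at P10. The classes filled the cycling pools unequally: NP-like cells were 51.4% and chondrocyte-like cells 37.7% of cycling cells at 8W, and 9.54% and 67.6% at P10. One NP-like cluster, number 15, was led by G2/M genes such as Cenpf and Mki67, and a chondrocyte-like one by Hist1h2ap, Birc5 and Top2a. Cluster 15 held 120 of the 132 NP-like cycling cells at 8W. With the libraries clustered separately, an alternative chosen for these values after seeing the data, 119 of those 120 cells were named chondrocyte-like. NP-like cells then made up 5.06% and chondrocyte-like cells 83.7% of cycling cells at 8W, and 9.73% and 66.4% at P10. Under that clustering chondrocyte-like cells stood at 1689 CPM in cycling against 1890 CPM in non-cycling cells at 8W (log2 -0.16, -0.19 to -0.13), the opposite direction, and at 3653 against 2226 CPM at P10 (log2 0.71). NP-like cells stood at 1011 against 441 CPM at P10 (log2 1.20), and at 8W, with 13 cycling cells, no ratio was taken. The name of these 8W cells thus depends on the clustering, and the 8W values within classes and the 8W shares hold for the joint clustering only.

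Between the ages, most histone genes were lower at 8W, while the median of all genes was higher. In all kept cells the members stood at 880 CPM at 8W against 1950 CPM at P10, a log2 ratio of -1.15 (-1.16 to -1.14). Of the 59, 3 were at least 2-fold higher at 8W and 38 lower, where 30.7% of all 17560 genes compared were higher and 7.04% lower and the median gene had a log2 ratio of 0.54. In non-cycling cells the sum was 835 CPM at 8W against 1821 CPM at P10 (log2 -1.12), with 4 of 51 compared members higher and 37 lower, where 32.2% of all genes were higher, 7.05% lower and the median was 0.58. By family, H1 genes stood at 233 against 293 CPM, H2A at 39.2 against 241, H2B at 466 against 853, H3 at 21.01 against 45.4 and H4 at 75.7 against 389. In cycling cells it was 1565 against 2931 CPM (log2 -0.91), with 3 of 52 higher and 18 lower, where 22.8% of all genes were higher and 6.5% lower. Age and library cannot be told apart, as each age is 1 library. The cycling pools of the ages also differed in class makeup, and its part in the ratio of cycling cells was not tested.

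Among the 35 genes with at least 100 UMIs in both non-cycling sums together, 7 stood lowest in the 8W over P10 ratio. All 7 have long annotated 3' ends, but long-ended genes held 93.1% of the histone UMIs, so this minimum favours them. Hist1h2br, an H2B gene, had 1.11 CPM (0.916 to 1.34) at 8W against 47.6 CPM (46.4 to 48.8) at P10, a log2 ratio of -5.42. Hist1h3d had 1.20 CPM at 8W against 32.1 CPM at P10 (log2 -4.74) and Hist2h4, an H4 gene, 4.65 against 79.2 CPM (log2 -4.09). Hist1h2ac stood at 12.3 against 172 CPM (log2 -3.80), and Hist4h4 at 2.79 against 33.7 CPM (log2 -3.60). Hist3h2ba and Hist1h1t were the other two, with 3 UMIs at 8W against 120 at P10 and 19 against 310. Hist1h2ap, with a short annotated 3' end, had a log2 ratio of -3.12, and the long-ended Hist1h4d stood at 11.97 against 96.9 CPM (log2 -3.02). Of the genes with fewer UMIs, Hist1h2ao had 0 UMIs at 8W against 89 at P10. Hist1h2br and Hist2h4 were low in 8W cycling cells as well: Hist1h2br had 0.974 CPM at 8W against 59.4 CPM at P10 there and Hist2h4 3.34 against 65.2 CPM.

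In cycling cells, 4 genes with large cycling ratios were compared between the ages. Hist1h2ae stood at 75.6 CPM at 8W against 83.1 CPM at P10 (log2 -0.14, -0.28 to 0.01) and Hist1h1a at 14.5 against 17.5 CPM (log2 -0.27, -0.61 to 0.06), both with intervals that include 0. Hist1h1b stood at 80.5 against 100.4 CPM (log2 -0.32). Hist1h2ap was lower at 8W, at 207 against 657 CPM (log2 -1.67). The cycling pools differed in class makeup: under the joint clustering, NP-like cells were 51.4% of them at 8W and 9.54% at P10. At P10, cycling NP-like cells had 181 CPM of Hist1h2ap against 844 CPM in cycling chondrocyte-like cells. The part of class makeup in these age ratios was not tested.

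The 2 leading genes of non-cycling cells moved far less. Hist1h2bc had 446 CPM at 8W against 782 CPM at P10 (log2 -0.81) and Hist1h1c 219 against 253 CPM (log2 -0.21). The 4 members at least 2-fold higher at 8W were Hist2h2be, an H2B gene best known from mouse olfactory neurons, at 3.32 against 0.747 CPM (log2 2.15), Hist1h4a at 4.76 against 1.77 CPM (log2 1.43), Hist1h4h at 12.1 against 4.63 CPM (log2 1.38) and Hist1h3f at 0.608 against 0.304 CPM (log2 1.00). Every 60-base stretch in the last 300 bases of Hist1h3f occurs in other genes. With the median gene set to a ratio of 0, none of the members counted as higher in all kept cells.

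**Figure D5:**
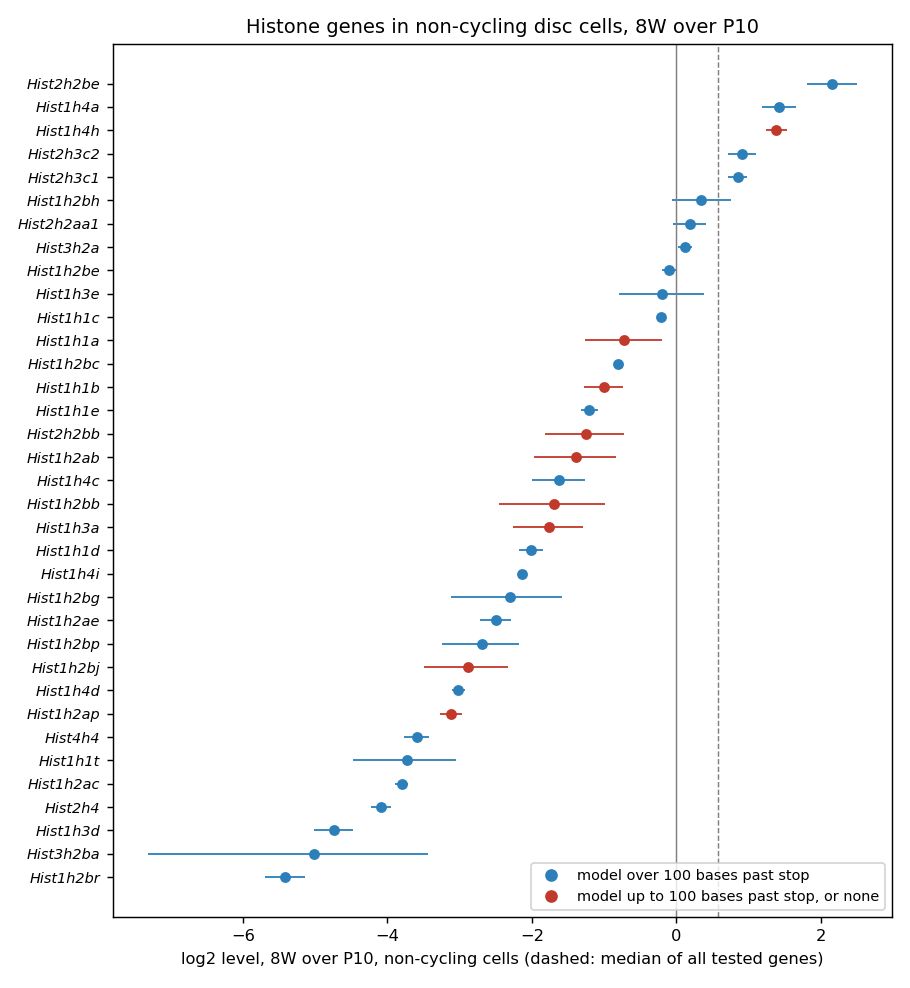
Log2 ratio of 8W over P10 in non-cycling cells for the 35 histone genes with at least 100 UMIs in both sums, with exact conditional 95% intervals; blue genes have more than 100 annotated bases past the stop codon, red ones up to 100 or none, and the dashed line is the median of all genes compared. Hist1h2br lies lowest at -5.42 and Hist2h2be highest at 2.15.

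The direction depended on the cell class. Non-cycling chondrocyte-like cells stood at 1367 CPM at 8W against 1994 CPM at P10 (log2 -0.54; -0.36 at resolution 2 and -0.24 with the libraries clustered separately). Hypertrophic chondrocyte-like cells stood at 533 against 2745 CPM (log2 -2.37), a value that rests on the joint clustering at resolution 1. At resolution 2 the cells so named stood at 1152 against 868 CPM (log2 0.41), and after clustering the libraries separately at 1086 against 1030 CPM (log2 0.076). Of the 678 P10 cells of cluster 10, 567 were named chondrocyte-like at resolution 2 and 517 had no name with the libraries clustered separately; 239 of the 410 8W cells of cluster 1 had no name there either. Of the compared members, 6 of 47 were at least 2-fold higher at 8W and 27 lower in chondrocyte-like cells (33.9% and 6.33% of all genes), and 0 of 36 higher and 27 lower in hypertrophic ones (25.5% and 10.5%). Non-cycling NP-like cells stood higher at 8W, at 683 against 410 CPM (log2 0.74, 0.67 to 0.80), where the median gene stood at 0.39; the ratio was 0.74 at resolution 2 and 0.63 with the libraries clustered separately. In these cells 9 of 23 members were higher and 5 lower (19.5% and 4.29% of all genes). Hist1h2bc in these cells had 357 CPM at 8W against 175 CPM at P10, and Hist1h2ac 9.35 against 8.13 CPM. For all NP-like cells the sum was 716 against 589 CPM (log2 0.28), with 4 of 33 members higher and 14 lower (18.4% and 5.04% of all genes). This ratio turned to -0.10 without Hist1h2bc and to -0.087 with the median gene at 0. Cycling NP-like cells stood at 1010 against 1033 CPM (log2 -0.03, -0.11 to 0.05). These classes were filled by different clusters at the 2 ages: numbers 0, 3 and 5 at 8W against 11, 12, 19, 20 and 25 at P10 for chondrocyte-like cells, 1 and 9 against 10 for hypertrophic ones, and 4, 6, 8 and 15 against 16, 15 and 6 for NP-like ones. Whether the cells are of the same kind at both ages was not tested, and Hist2h4 and Hist1h2ac are among the 10 leading genes of clusters 11 and 12.

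Endothelial-like cells, 1 cluster at both ages, also had less histone RNA at 8W. The sum was 291 CPM at 8W against 529 CPM at P10 (log2 -0.86, -1.02 to -0.70), with Hist2h4 at 3.73 CPM (7 UMIs) against 36.7 CPM (58 UMIs) and Hist1h4i at 11.7 against 56.3 CPM. Of 12 compared members 0 were higher and 7 lower, where 12.5% of all genes compared were higher and 3.57% lower. In mural-like cells the sum was 320 against 960 CPM, in macrophage-like cells 405 against 705 CPM and in neutrophil-like cells 342 against 1529 CPM, each from 27 to 106 non-cycling cells per age.

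H2A and H2B genes often stand head to head and share the DNA between them. Among the members, 9 such pairs started within 500 bases of each other. The stretches between 2 of them are shown because the cycling ratios of the partners over all cells were far apart in one and closer in the other (RefSeq promoter table, GRCm38.p6, plus strand, with matches to the same motifs on either strand in capitals):
Hist1h2ap–Hist1h2br (chr13:21833508-21833742): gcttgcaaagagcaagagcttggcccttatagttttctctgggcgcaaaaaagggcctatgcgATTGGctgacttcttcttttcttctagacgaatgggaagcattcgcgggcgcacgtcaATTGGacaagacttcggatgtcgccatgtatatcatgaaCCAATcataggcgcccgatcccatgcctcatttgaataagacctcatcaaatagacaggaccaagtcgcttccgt
Hist1h2ac–Hist1h2bc (chr13:23683949-23684198): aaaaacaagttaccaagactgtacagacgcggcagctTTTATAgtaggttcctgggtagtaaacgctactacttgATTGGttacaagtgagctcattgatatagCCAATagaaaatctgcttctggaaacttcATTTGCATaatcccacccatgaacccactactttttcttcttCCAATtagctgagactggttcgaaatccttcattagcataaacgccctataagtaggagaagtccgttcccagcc
Hist1h2ap and Hist1h2br, 235 bases apart, had cycling log2 ratios of 5.68 and -0.19 at 8W and of 4.23 and 0.32 at P10. Hist1h2ac and Hist1h2bc, 250 bases apart, had ratios of -0.32 and -0.03 at 8W and of -0.72 and -0.36 at P10. Their 8W over P10 ratios in non-cycling cells were far apart, at -3.80 and -0.81. For Hist1h2ap and Hist1h2br those age ratios were -3.12 and -5.42. Hist1h2ap has 57 annotated bases past its stop codon and Hist1h2br 1803, whereas Hist1h2ac has 2058 and Hist1h2bc 742. Hist1h2ak and Hist1h2bn, both with no annotated 3' end, had ratios of 4.13 and 3.54 at P10, whereas Hist1h2bf and Hist1h2ad, with 74 and 89 bases, had 1.92 and 0.82. Hist1h2ae and Hist1h2bg, with 199 and 200 bases, had ratios of 2.81 and 1.77 at P10. The pair on chromosome 3, Hist2h2ac with 94 bases and Hist2h2be with 2192, had cycling ratios of 5.12 and 1.35 at 8W and of 4.90 and 3.20 at P10. Between the ages its partners went opposite ways in non-cycling cells, with 8W over P10 ratios of -1.22 for Hist2h2ac and 2.15 for Hist2h2be.

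The replacement and variant histone genes, whose transcripts are polyadenylated and which lie outside the clusters, were compared in the same way. Of 12 compared at 8W, 6 were at least 2-fold higher in cycling cells (11.6% of all genes), and likewise 6 of 11 at P10 (13.2% of all genes), with 0 lower at either age. H2afz, which encodes H2A.Z, stood at 2316 CPM in cycling cells against 260 CPM in non-cycling cells at 8W and at 1980 against 279 CPM at P10. Cenpa, the centromeric H3, stood at 367 against 3.34 CPM at 8W and at 204 against 4.18 CPM at P10. H3f3b and H3f3a, which encode H3.3, were 1.33-fold to 1.73-fold higher and did not reach 2-fold. In non-cycling cells none of 12 compared variant genes was 2-fold lower at 8W than at P10, where 7.05% of all genes were, with H2afz at 260 against 279 CPM and H3f3a at 877 against 850 CPM.

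Some genes that transcribe, cut or degrade histone RNA passed 2-fold. Of the 24 compared, 4 were at least 2-fold higher in cycling cells at 8W (Slbp, Lsm11, Zfp473 and Eri1) and 6 at P10 (Slbp, Lsm11, Eri1, Npat, Casp8ap2 and Cpsf2), with 0 lower; these are 16.7% and 25% of the list, where 11.6% and 13.2% of all genes were higher. Slbp, the stem-loop binding protein, stood at 94.8 against 38.7 CPM at 8W and at 109 against 32.3 CPM at P10. Unlike the short-ended histone genes, Slbp was higher in S-leaning than in G2/M-leaning cells, at 155 against 71.2 CPM at 8W and at 155 against 85.6 CPM at P10. Of 21 histone chaperones, 8 were at least 2-fold higher in cycling cells at 8W and 9 at P10, with 0 lower. Chaf1b, a subunit of the chromatin assembly factor CAF-1, stood at 26.2 against 1.77 CPM at 8W and at 35.4 against 1.33 CPM at P10. In non-cycling cells, 0 processing genes and 0 chaperones were 2-fold lower at 8W than at P10, a count to be read against the 7.05% of all genes; the chaperone Nap1l1 stood higher, at 721 against 187 CPM.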

How the data were processed

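Whole intervertebral discs of mice at 8W and P10 were profiled by 10x single-cell RNA-seq, with 1 pooled matrix per age. The deposited values are UMI counts per gene and cell barcode, unnormalized; per the submitters' processing notes Cell Ranger 3.1.0, Seurat 3 and the GRCm38 (mm10) build were used, and the roles of these tools are not given in the sources used here. The separate matrices of exogenous transcripts were not used here. The matrices held 7597 barcodes with 115097999 UMIs at 8W and 7690 barcodes with 143203550 UMIs at P10. How reads that fit several genes, or lie past an annotated end, were treated bears on near-identical histone genes and is not given in the sources used here.

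Barcodes were kept from 500 detected genes and 1000 UMIs upwards, if mitochondrial genes took no more than 15% of the UMIs. Scrublet called 139 doublets at 8W, which were removed; at P10 its threshold called 0, so it did not work there, although 190 cells scored over 0.25. Cells of both libraries were normalized and clustered together (2000 variable genes without histone genes, 30 components, 15 neighbours, Leiden resolution 1), and clusters were named from marker lists. Cells between the cycling and non-cycling limits (232 at 8W, 216 at P10) were left out of those comparisons, and 78 cells at 8W and 120 at P10 lay between 15 and 25 cell-cycle UMIs per 10000. UMIs were summed over cells. Levels carry exact Poisson intervals, ratios exact conditional binomial intervals and shares Clopper-Pearson intervals, all at 95% and covering counting error only. A group at 0 was given the value of 3 counts, summed over its cells, as a bound. No test or p-value across samples was possible. The ratio step was tested on simulated data.

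Transcript ends came from GENCODE vM21 and promoters from RefSeq. Named genes were the 20 members with the most UMIs, the 5 highest and 5 lowest of each ratio with at least 100 UMIs, every H1 gene, from each partner list the 6 genes richest in UMIs, and any single member of a count; others named here were chosen after their values were seen. The members and gene lists were chosen with earlier results of these data known. Alternatives changed the scaling, UMI minimum, doublet limit, depth, cell weighting, cycling limit, clustering, cell filter and the gene with the most UMIs. Python 3.11.15, Scanpy 1.11.5, SciPy 1.17.1, NumPy 2.4.6, pandas 2.3.3, igraph 0.11.9 and Matplotlib 3.10.9 were used.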

Additional observations from a re-analysis of the deposited data

Results flagged for a closer look

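Hist2h3c1, an H3 gene, had a log2 ratio of cycling over non-cycling cells of -0.57 at 8W and of 0.87 at P10, so the ages moved in opposite directions. The difference was not tested, as there is 1 library per age. With cells thinned to 2000 UMIs the P10 value was -0.23. All of the 60-base stretches in the last 300 bases of Hist2h3c1 occur in other genes, and the gene overlaps Gm20634 on the same strand over 1825 bases.

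Hist1h4d, an H4 gene, had a log2 ratio of cycling over non-cycling cells of 1.87 at 8W and of -0.14 at P10. This difference was not tested either. The P10 value was 0.068 with a stricter cycling limit of 40 per 10000 and 1.77 within NP-like cells.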

How the results depend on the processing

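No paired analysis was possible because the 4 records of each age are pooled in 1 matrix and carry no map from cells to records. No replicate was left out, as each age is 1 library. All values are log2 ratios of summed levels unless called counts. The alternative with every deposited barcode was not run for NP-like cells, which need classes; restricting to 1 class and the values for single named members were chosen after seeing the data.

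The 8W over P10 ratio of all kept cells (-1.15) was -1.69 with the median gene at 0, -1.40 without mitochondrial, ribosomal and hemoglobin genes in the total, -1.09 thinned, -1.09 with cells weighted equally, -1.44 without Hist1h2bc and -1.16 with every barcode. In non-cycling cells (-1.12) the same alternatives gave -1.71, -1.38, -1.07, -1.07 and -1.42, and classes taken alone gave -0.54 for chondrocyte-like and 0.74 for NP-like cells. The NP-like ratio (0.28) was -0.087 with the median gene at 0, 0.12 without those genes in the total, 0.35 with a minimum of 100 UMIs, 0.62 with a doublet score limit of 0.25, 0.38 thinned, 0.46 with equal weights, 0.18 with separate clustering of each library and -0.10 without Hist1h2bc. The cause of the reversals was not tested. Under other clusterings, chosen for these values after seeing the data, the non-cycling hypertrophic chondrocyte-like ratio (-2.37) was 0.41 at resolution 2 and 0.076 with separate clustering of each library, and the 8W cycling ratio within chondrocyte-like cells (0.88) was -0.16 with separate clustering.

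The cycling ratio at 8W (0.91) was 0.80 with the median gene at 0, 0.83 with a minimum of 100 UMIs, 0.80 and 1.14 with cycling limits of 15 and 40, 0.95 thinned, 0.95 with equal weights, 1.54 without Hist1h2bc and 0.56 within NP-like cells. At P10 (0.69) these were 0.47, 0.67, 0.64, 0.86, 0.71, 0.71, 1.16 and 1.33, with 0.86 within chondrocyte-like cells. The S-leaning ratio at 8W (-0.86) was -1.004 and -0.40 with cycling limits of 15 and 40, -0.68 thinned, -0.70 with equal weights and -0.97 without Hist1h2bc. At P10 (-0.55) these were -0.61, -0.40, -0.85, -0.81 and -0.52, with -0.51 without the named genes in the total and -0.58 with the doublet limit.

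Counts of members fell under fewer UMIs or genes compared. Those higher in cycling cells at 8W (29) came to 12 with a minimum of 100 UMIs, 8 thinned and 17 within NP-like cells, and at P10 (38) to 21, 12 and 14. Those higher at 8W than at P10 (3) came to 0 with the median gene at 0, and those lower (38) to 21 thinned. Of single members, 8W over P10 in non-cycling cells reversed within NP-like cells for Hist1h2bc (1.03), Hist1h1c (0.90), Hist1h4i (0.18), Hist1h2ac (0.20), Hist1h1d (1.41) and Hist3h2a (-0.92), and within chondrocyte-like cells for Hist1h1c (0.38) and Hist1h1b (0.13). Hist3h2a was also -0.46 with the median gene at 0 and -0.13 without the named genes in the total. The P10 cycling ratio reversed within NP-like cells for Hist1h2bc (0.46), Hist1h2ac (2.33), Hist1h4d (1.77), Hist2h4 (2.31), Hist3h2a (-1.31) and Hist1h4h (-0.10), for Hist1h4d at a cycling limit of 40 (0.068) and for Hist2h3c1 thinned (-0.23). Of the other values for single members, 189 moved and 266 did not move beyond their intervals.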
